A study of Sus scrofa with 6 samples.

Results

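Fat is an endocrine organ, and the 9 genes described here encode hormones and related proteins that it secretes, together with the receptors of its most abundant hormone. They are adiponectin (ADIPOQ), leptin (LEP), retinol-binding protein 4 (RBP4), resistin (RETN), apelin (APLN), chemerin (RARRES2), angiopoietin-like 4 (ANGPTL4) and the adiponectin receptors ADIPOR1 and ADIPOR2. They were picked by their pig gene symbol among the 22844 rows of the deposited tables. Of the 9 genes, 8 had a row, and 7 passed the filter on low values and were tested. APLN had no row under its identifier and was not analysed here, and RETN is given by its reads alone.

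The tissue was subcutaneous fat from crossbred pigs (Duroc × Landrace × Yorkshire). The control group held 3 libraries of a control diet, and the resveratrol group 3 libraries of a diet with 400 mg/kg of resveratrol, a polyphenol of grapes and other plants. The sources used here do not give age, sex, time on the diet or whether a library is 1 animal or a pool, so each p-value reflects only how far these libraries spread, and that spread may be technical. Total RNA was sequenced from long RNA libraries, and each gene has a read count and a TPM value, an abundance scaled for transcript length and library total that allows levels of different genes to be set side by side.

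Depth lay between 16251536 reads (control 2) and 37943877 reads (resveratrol 2). Genes of adipocytes were abundant in every library: FABP4, the fatty acid binding protein of adipocytes, measured 11828 to 19979 TPM, and PLIN1, the coat protein of the lipid droplet, 889 to 1028 TPM. The 4 skeletal muscle markers with a row summed to at most 2.13 TPM. Assembled loci without an Ensembl gene took 25.5% to 33.9% of all TPM, with the largest part in control 1, and this lowers the TPM of every other gene there. Of 14908 rows tested with edgeR's quasi-likelihood test, 0 passed an adjusted p under 0.05, and 973 (6.53%) had an unadjusted p under 0.05. DESeq2 on the same counts called 40 rows (0.268%) and limma on log2(TPM + 0.5) called 0 (0.0%), with 5.06% of rows at an unadjusted p under 0.05 in limma.

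Adiponectin is made by mature adipocytes, folded and assembled into multimers in the endoplasmic reticulum with the help of ERP44, and raises insulin sensitivity through ADIPOR1 and ADIPOR2, which act on AMP-activated kinase and PPARA. Leptin is secreted in proportion to fat stores and curbs appetite through its receptor LEPR in the brain. RBP4 carries retinol in blood, chemerin attracts immune cells and acts on adipocytes through CMKLR1, and ANGPTL4 inhibits lipoprotein lipase (LPL), the enzyme that frees fatty acids from circulating triglyceride.

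The 7 tested genes spanned a wide range of levels. ADIPOQ had the highest mean over the 6 libraries, 4191 TPM, which was 11.2 times that of ADIPOR2 (375 TPM). It ranked between 12 and 19 among the 22452 Ensembl rows in each library, and made up 81.2% to 85.8% of the TPM of all 8 genes with a row. ANGPTL4 (171 TPM) and RARRES2 (157 TPM) followed, with overlapping ranges and ANGPTL4 above RARRES2 in 4 of 6 libraries, so that their order was not set beyond the spread. RBP4 (73.6 TPM) and ADIPOR1 (52.8 TPM) also overlapped in range, although RBP4 was the higher of the pair in all 6 libraries. LEP was the lowest, with a mean of 17.8 TPM. No other neighbours in this order overlapped.

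**Figure D1:**
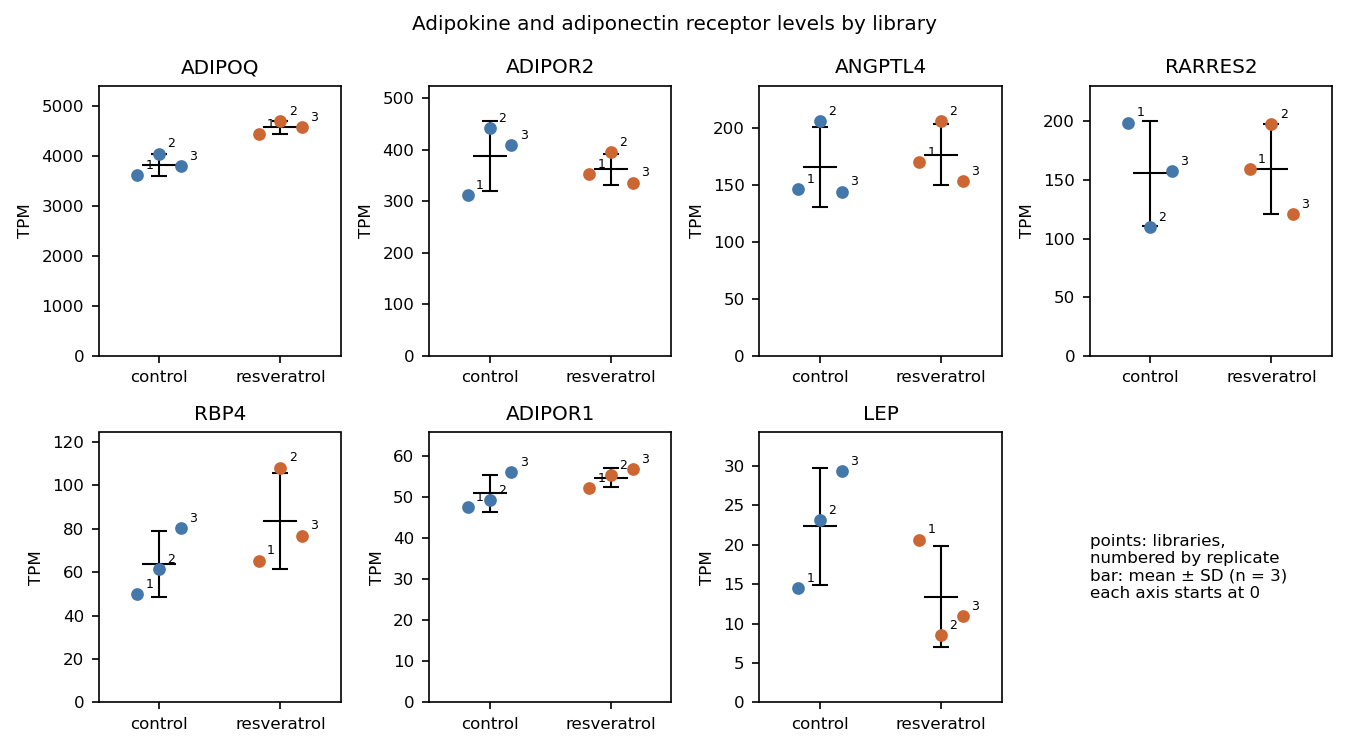
TPM of the 7 tested genes in each library, 1 panel per gene, with control in blue and resveratrol in orange, points numbered by replicate, and bars for mean ± SD (n = 3). ADIPOQ is the only panel in which the groups do not overlap, while LEP spreads from 8.57 to 29.3 TPM.

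The comparison of the diets asked whether fat of resveratrol-fed pigs carried other levels of these transcripts. None of the 7 tested genes passed the adjusted threshold in edgeR, in DESeq2 or in limma, and none had an unadjusted p under 0.05 in edgeR, where 6.53% of all rows did. ADIPOQ was the 1 gene of the 7 whose groups did not overlap, in TPM and in TMM-scaled CPM (reads scaled for depth and composition). Among all rows, groups were apart in 12.3% in TPM (4.11% higher and 8.15% lower in resveratrol) and in 12.6% in CPM (5.67% higher and 6.97% lower). In direction, 5 of the 7 were higher and 2 lower in resveratrol, with a median log2 fold change of 0.10, beside -0.0075 over all rows tested, of which 7281 were higher and 7627 lower. On the log2(TPM + 0.5) scale of limma the median over all rows was -0.08, so fold changes of TPM sit slightly below those of the scaled counts. DESeq2 gave an unadjusted p under 0.05 for ADIPOQ alone among the 7, against 7.38% of all rows.

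ADIPOQ (ENSSSCG00000039103.1) stood at 3614, 4042 and 3795 TPM in control 1, 2 and 3, against 4437, 4683 and 4575 TPM in resveratrol 1, 2 and 3. Every resveratrol library thus lay above every control library. The group means were 3817 ± 215 and 4565 ± 123 TPM (SD, n = 3 each). In TMM-scaled CPM the control libraries held 3782 to 4503 and the resveratrol libraries 5079.9 to 5694. The edgeR log2 fold change was 0.36 (SE 0.21), with a Benjamini-Hochberg adjusted p = 0.735 and an unadjusted p = 0.12. In DESeq2 it was 0.36, with an unadjusted p = 0.0268 and an adjusted p = 0.604.

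The libraries of a group were close to each other for ADIPOQ. Its SD within groups was 0.108 on the log2 CPM scale, which only 8.20% of the 9526 rows averaging 5 TPM or more undercut, and the median of those rows was 0.233. Its log2 fold change was larger than that of 91.6% of all rows tested. The size depended on the scale: it was 0.26 in limma on log2(TPM + 0.5), 0.21 when TPM was rescaled without the assembled loci, and 0.10 after quantile normalization, against 0.43 with library totals alone. The difference was positive in each of these and without each library in turn (0.29 to 0.42).

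In bulk tissue, more adipocytes in a sample and more transcript per adipocyte cannot be told apart. Set against PLIN1 in the same library, ADIPOQ stood at 3.87 to 4.35 times its TPM in control and 4.53 to 4.78 times in resveratrol, so that the groups did not overlap. PLIN1 was chosen after its values were seen and varied little (highest over lowest library 1.16), so this ratio largely repeats the separation of ADIPOQ itself. Set against the summed TPM of 15 adipocyte identity genes, the ratio ran from 0.135 to 0.164 in control and from 0.142 to 0.174 in resveratrol, and the groups overlapped. That sum is dominated by FABP4 and itself came to 22060.4 to 28123 TPM among control and 25863 to 32204 TPM among resveratrol libraries.

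LEP (ENSSSCG00000040464.1) had a lower mean in resveratrol. It stood at 14.5, 23.1 and 29.3 TPM in control 1, 2 and 3, against 20.6, 8.57 and 10.9 TPM in resveratrol 1, 2 and 3, from 195 to 570 reads per library. Resveratrol 2 and 3 lay below all control libraries, but resveratrol 1 lay above control 1, so the groups overlapped. The means were 22.3 ± 7.45 and 13.4 ± 6.39 TPM (SD, n = 3 each), and the edgeR log2 fold change was -0.67 (SE 0.35, adjusted p = 0.733).

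LEP was the most variable of the 7, with an SD within groups of 0.575 on the log2 CPM scale, more than in 94.7% of rows of at least 5 TPM. Without resveratrol 1 its log2 fold change was -1.09, with an edgeR unadjusted p = 0.00816 and an adjusted p = 0.941. Without control 3, the library in which it was highest, the value was -0.34 (unadjusted p = 0.348 in edgeR), and without resveratrol 2, -0.42. The value was negative under all 25 alternatives and passed the adjusted threshold in none.

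ADIPOQ and LEP are often read together, since adiponectin tends to be low and leptin high in obesity. The ratio of ADIPOQ to LEP in TPM was 249, 175 and 129 in control 1, 2 and 3, and 215, 546 and 419 in resveratrol 1, 2 and 3. Resveratrol 2 and 3 lay above every control library, and resveratrol 1 lay below control 1. The group means were 185 ± 60.6 and 393 ± 167 (SD, n = 3 each), so the groups overlapped and the spread within resveratrol alone was wide.

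**Figure D2:**
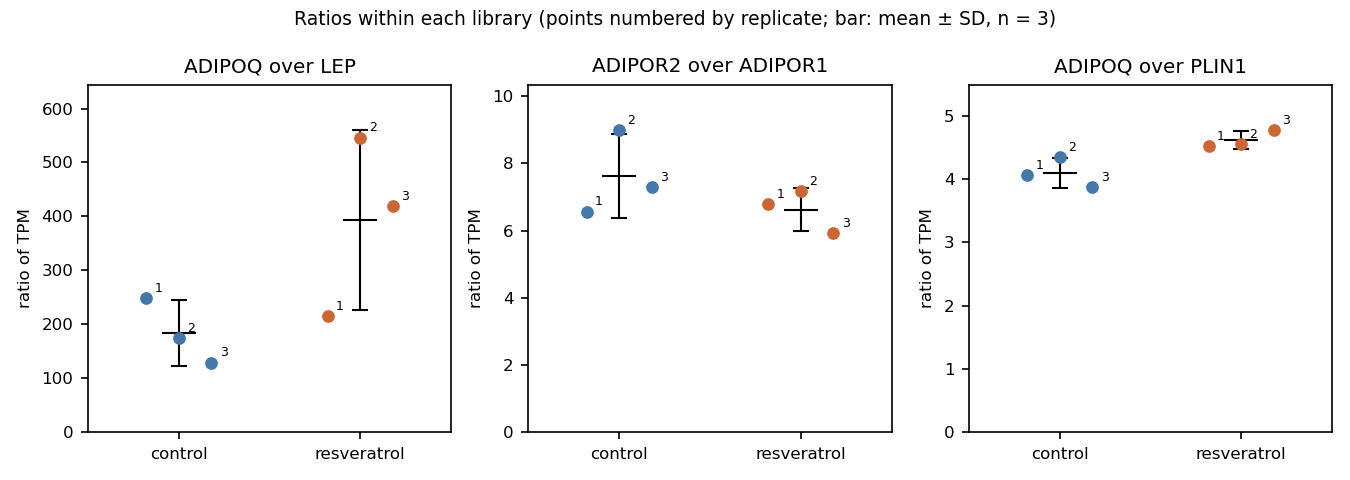
Ratios of TPM within each library for ADIPOQ over LEP, ADIPOR2 over ADIPOR1 and ADIPOQ over PLIN1, with control in blue, resveratrol in orange, points numbered by replicate and bars for mean ± SD (n = 3). The groups overlap for ADIPOQ over LEP and for ADIPOR2 over ADIPOR1, and are apart for ADIPOQ over PLIN1.

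RBP4 (ENSSSCG00000010479.3), the retinol carrier, measured 50.0, 61.4 and 80.1 TPM in the control libraries, against 65.2, 108 and 76.7 TPM in resveratrol 1, 2 and 3. Resveratrol 2 was the highest library and control 1 the lowest, and control 3 lay above resveratrol 1 and 3. The log2 fold change was 0.45 (SE 0.24), with an edgeR adjusted p = 0.733. It was 0.71 without control 3 (edgeR unadjusted p = 0.0106, adjusted p = 0.436), a fit in which 1681 of all rows had an unadjusted p under 0.05. The RBP4 value was 0.25 without resveratrol 2 (edgeR unadjusted p = 0.355) and positive under all 25 alternatives.

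RARRES2 (ENSSSCG00000035419.1), the precursor of chemerin, measured 199, 110 and 158 TPM in the control libraries, against 159, 198 and 121 TPM with resveratrol. High and low libraries were found in both groups, and the means of 156 ± 44.5 and 159 ± 38.5 TPM (SD, n = 3 each) were within the spread. Its log2 fold change of 0.09 (SE 0.25, edgeR adjusted p = 0.944) became -0.14 without control 2 and -0.04 without resveratrol 2.

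ANGPTL4 (ENSSSCG00000013599.3), a fasting-induced target of PPAR receptors, measured 147, 206 and 144 TPM in the control libraries, against 170, 206 and 153 TPM with resveratrol. Control 2 and resveratrol 2 shared the highest level, and the groups overlapped. Its log2 fold change was 0.19 (SE 0.18, edgeR adjusted p = 0.797). On the log2(TPM + 0.5) scale of limma it was 0.10.

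RETN (ENSSSCG00000013575.4) had 0 reads in each of the 6 libraries. Resistin is a product of adipocytes in rodents and mainly of monocytes and macrophages in humans. A count of 0 allows up to 3 reads, which is 0.0791 CPM in the deepest library and 0.185 CPM in the shallowest (counting error only). The tables list 0.163 TPM for it in control 1 and 0.137 TPM in resveratrol 2 without a read. All 12 listed macrophage markers passed the filter in the same libraries, and C1QC, a complement subunit made by these cells, measured 132 to 270 TPM.

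The adiponectin receptors stood at different levels, and for each the diet groups overlapped. ADIPOR1 (ENSSSCG00000010931.3) measured 47.5, 49.2 and 56.0 TPM in the control libraries, against 52.1, 55.3 and 56.7 TPM with resveratrol, the narrowest range of the 7 genes (highest over lowest library 1.19). ADIPOR2 (ENSSSCG00000000757.3) measured 312, 442 and 409 TPM in the control libraries, against 353, 396 and 336 TPM with resveratrol, all inside the range of the control libraries. Their log2 fold changes were 0.10 (SE 0.17) and -0.01 (SE 0.19), with edgeR adjusted p = 0.896 and 0.997. ADIPOR2 stood at 5.93 to 8.99 times the TPM of ADIPOR1, with means of 7.62 ± 1.24 for control, against 6.62 ± 0.634 for resveratrol (SD, n = 3 each).

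**Figure D3:**
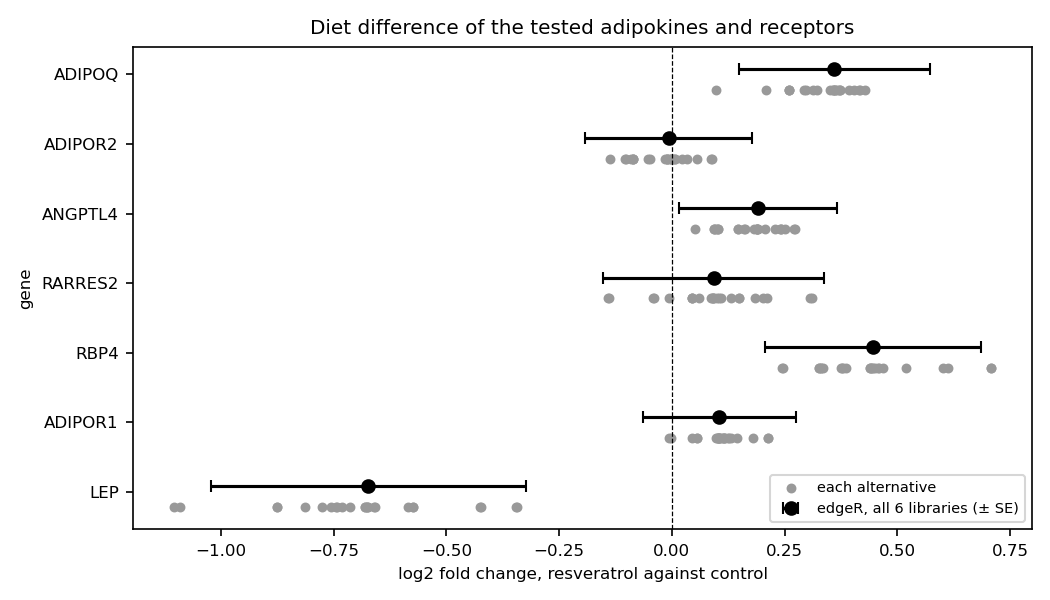
Log2 fold change of resveratrol against control for the 7 tested genes, with the edgeR value and its SE from all 6 libraries in black and the value under each alternative in grey. ADIPOQ, RBP4 and ANGPTL4 lie right of 0 and LEP left of 0 under every alternative in which they were fitted, while RARRES2, ADIPOR1 and ADIPOR2 have alternatives on both sides.

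The 7 genes had different profiles across the libraries. After subtraction of each gene's own mean of log2 CPM, the closest pair was ADIPOQ and ADIPOR1, with a root mean square difference of 0.137 over the 6 libraries, and the farthest was LEP and RBP4, with 0.824. LEP stood apart from each of the other 6 by at least 0.572. Control 2, the shallowest library, was the lowest library for ADIPOQ, RBP4, RARRES2 and ADIPOR1 on this scale. Resveratrol 2 was the highest library for RBP4 and ANGPTL4 and the lowest for LEP.

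**Figure D4:**
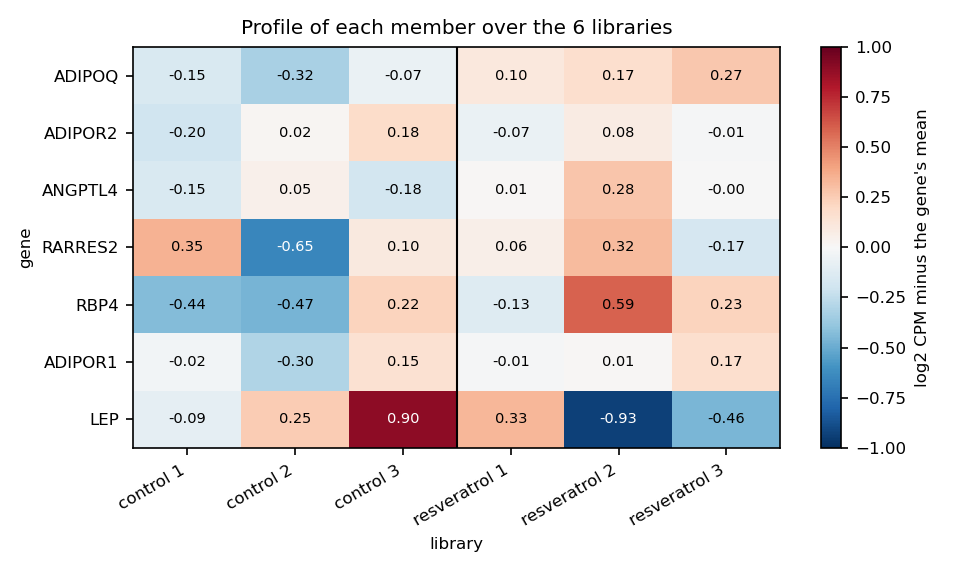
Log2 CPM of each tested gene minus its own mean, by library, from blue (below the mean) to red (above). LEP has both extremes, 0.90 in control 3 and -0.93 in resveratrol 2, and RBP4 is highest where LEP is lowest.

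The genes whose profiles over the 6 libraries were most like those of 4 members were sought among 7679 genes with a symbol and at least 5 TPM. For ADIPOQ they were APEH, SUPT4H1 and DIABLO (root mean square difference 0.0269 to 0.0427 on the log2 scale, where ADIPOQ itself varied by 0.201). For RBP4 they were GRHPR, HSD17B10 and PPIF (0.0628 to 0.124), and for ANGPTL4 DSTN, USP28 and FAM13C (0.0400 to 0.0668). LEP had no close match: RASD1, ADAMTS1 and DZIP1L came nearest, at 0.329 to 0.350, where LEP itself varied by 0.587. RASD1, a small GTPase induced by glucocorticoids, measured 3.28, 7.76 and 13.3 TPM in the control libraries, against 6.80, 2.64 and 4.67 TPM with resveratrol, with the same highest and lowest library as LEP. With 6 libraries such nearness is a description only.

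Of the genes that fold adiponectin or relay its signal, 9 of 10 were tested and none had an unadjusted p under 0.05 in edgeR. Their median log2 fold change was 0.0037, and -0.08 in limma on log2(TPM + 0.5). CDH13, the T-cadherin that binds adiponectin multimers at the cell surface, averaged 35.6 ± 10.9 TPM (SD, n = 3) on the control diet, against 25.5 ± 3.47 TPM (SD, n = 3) with resveratrol, with overlapping libraries (log2 fold change -0.38, SE 0.21). Its value was -0.23 without control 1 and -0.57 without control 3. APPL1, the adaptor that binds both adiponectin receptors, had a log2 fold change of 0.17, and PRKAA2, a catalytic subunit of AMP-activated kinase, one of -0.10. GSTK1, which promotes adiponectin multimerization, measured 86.9 to 103 TPM among control libraries and 103 to 118 TPM with resveratrol, with control 3 just above resveratrol 1. ERP44, the chaperone that retains adiponectin, measured 15.9 to 27.7 TPM among control libraries and 18.0 to 21.0 TPM with resveratrol.

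In the leptin pathway, LEPR measured 5.20 TPM in control 1 and 0.0643 to 0.424 TPM in the other 5 libraries. The 6 tendon and cartilage markers summed to 118 TPM in that library and to 9.85 and 28.4 TPM in control 2 and 3. With resveratrol they summed to 4.93 to 8.98 TPM, so every control library lay above every resveratrol library. The part of these markers in the LEPR value was not tested. The log2 fold change of LEPR was -3.19 (SE 1.53) on all 6 libraries and -0.47 without control 1. LEPR had 732 reads in control 1 and 7 to 71 in each other library. It passed the filter of 0.5 TPM only through control 1, so its place among the tested genes is set by that library. PTPN1, a phosphatase that dampens leptin and insulin signals, was lower in every resveratrol library, with 11.5, 18.2 and 12.2 TPM in the control libraries, against 9.51, 10.6 and 9.0 TPM with resveratrol (log2 fold change -0.39, SE 0.16, edgeR adjusted p = 0.733). STAT3, the transcription factor activated by LEPR, averaged 42.4 ± 4.55 and 34.8 ± 0.989 TPM, also without overlap (log2 fold change -0.19, SE 0.15). Among all rows, 8.15% were apart and lower in resveratrol in TPM, and 6.97% in CPM. SOCS3, the feedback inhibitor of leptin signalling, had a log2 fold change of -0.28. Of the 8 tested genes of this list, 1 had an unadjusted p under 0.05 and was lower, where 4.32% of all rows did so in that direction.

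Around RBP4, STRA6, its membrane receptor, was at most 0.18 TPM in any library. RBP7, a retinol-binding protein inside cells of fat and its vessels, measured 54.6, 72.0 and 48.3 TPM in the control libraries, against 61.4, 84.6 and 82.7 TPM with resveratrol, overlapping in TPM but not in TMM-scaled CPM (log2 fold change 0.48, SE 0.19, edgeR adjusted p = 0.733). It was the single gene among 8 tested in the retinoid list with an unadjusted p under 0.05, where 6.53% of all rows had one (2.21% on the higher side). In CPM, 5.67% of all rows were apart and higher in resveratrol. The retinoic acid receptors RARA and RARB had log2 fold changes of -0.29 and -0.45, and RDH10, a retinol dehydrogenase, 0.20, none past the threshold.

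Among 6 receptors of resistin, apelin and chemerin, 2 had an unadjusted p under 0.05, both higher, where 2.21% of all rows did so. APLNR, the apelin receptor, measured 13.2, 13.7 and 12.2 TPM in the control libraries, against 20.1, 16.7 and 14.1 TPM with resveratrol (log2 fold change 0.46, SE 0.16, edgeR adjusted p = 0.733). CCRL2, which binds chemerin without signalling, measured 0.475, 0.307 and 0.419 TPM against 1.31, 0.80 and 0.762 TPM (log2 fold change 1.30, SE 0.44, edgeR adjusted p = 0.733). CCRL2 had 6 to 22 reads per control library, and its control mean of 0.40 TPM lay under the filter of 0.5 TPM. It passed the filter only through the resveratrol libraries (mean 0.957 TPM), so its place in the count of 2 is partly set by the filter. In both APLNR and CCRL2, every resveratrol library lay above every control library, where 4.11% of all rows did so in TPM and 5.67% in CPM. The 12 macrophage markers, all with a positive log2 fold change in edgeR (CSF1R was negative in limma with rescaled TPM and without control 2 or resveratrol 1), summed to 613 to 720 TPM among control libraries and 764 to 1144 TPM with resveratrol, highest in resveratrol 1, and their part in these receptor values was not tested. CMKLR1, the signalling receptor of chemerin, measured 3.33 to 5.10 TPM over the 6 libraries, and CAP1, a proposed resistin receptor, 31.5 to 54.4 TPM.

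LPL, the target of ANGPTL4, measured 551, 930 and 907 TPM in the control libraries, against 643, 764 and 641 TPM with resveratrol. It was 3.76 to 6.30 times the TPM of ANGPTL4 in control and 3.71 to 4.18 times in resveratrol, with overlap. GPIHBP1, which carries the enzyme to the capillary wall, averaged 198 ± 71.2 against 241 ± 22.7 TPM (SD, n = 3 each). None of the 8 tested genes of this list had an unadjusted p under 0.05. Their median log2 fold change was 0.06, and -0.04 in limma on log2(TPM + 0.5).

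Among the other secreted factors of fat, LCN2, the lipocalin released in inflammation, measured 21.7, 37.4 and 29.3 TPM in the control libraries, against 21.2, 18.2 and 18.1 TPM with resveratrol (log2 fold change -0.52, SE 0.18, edgeR adjusted p = 0.733). IL6 averaged 5.73 ± 1.16 against 3.72 ± 0.637 TPM (SD, n = 3 each). The groups of both genes were apart, where 8.15% of all rows were apart and lower in resveratrol in TPM (6.97% in CPM). CFD, the complement factor adipsin and an abundant adipokine, measured 248 to 342 TPM among control libraries and 333 to 434 TPM with resveratrol. Of the 13 factors reported here, 6 were higher and 7 lower. LCN2 was the 1 of the 13 with an unadjusted p under 0.05 in edgeR, near the 6.53% of all rows with one (4.32% on the lower side).

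The paralogs of adiponectin in the C1q and TNF family were opposite in sign to ADIPOQ, a contrast that was not tested. All 6 with a row had a negative log2 fold change in edgeR, with a median of -0.49, where 7627 of all 14908 rows were lower. C1QTNF4 was the 1 of 6 with an unadjusted p under 0.05, where 4.32% of all rows were lower with such a p. C1QTNF1, the most abundant, measured 82.0, 58.5 and 71.3 TPM in the control libraries, against 46.2, 57.2 and 50.5 TPM with resveratrol (log2 fold change -0.41, SE 0.21, edgeR adjusted p = 0.733), apart in TPM but overlapping in CPM. Its log2 fold change was -0.23 without control 1 and -0.60 without control 2. In TPM, 8.15% of all rows were apart and lower in resveratrol. C1QTNF3 measured 33.1 TPM in control 1, the library with the highest sum of tendon and cartilage markers, and 2.33 to 4.33 TPM elsewhere. Its log2 fold change of -2.10 became -0.15 without control 1. C1QTNF2 was positive with library totals alone, with quantile normalization, with the replicate block and without resveratrol 3, and C1QTNF2 and C1QTNF7 were positive without control 1. The part of the tendon and cartilage markers in these values was not tested.

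**Figure D5:**
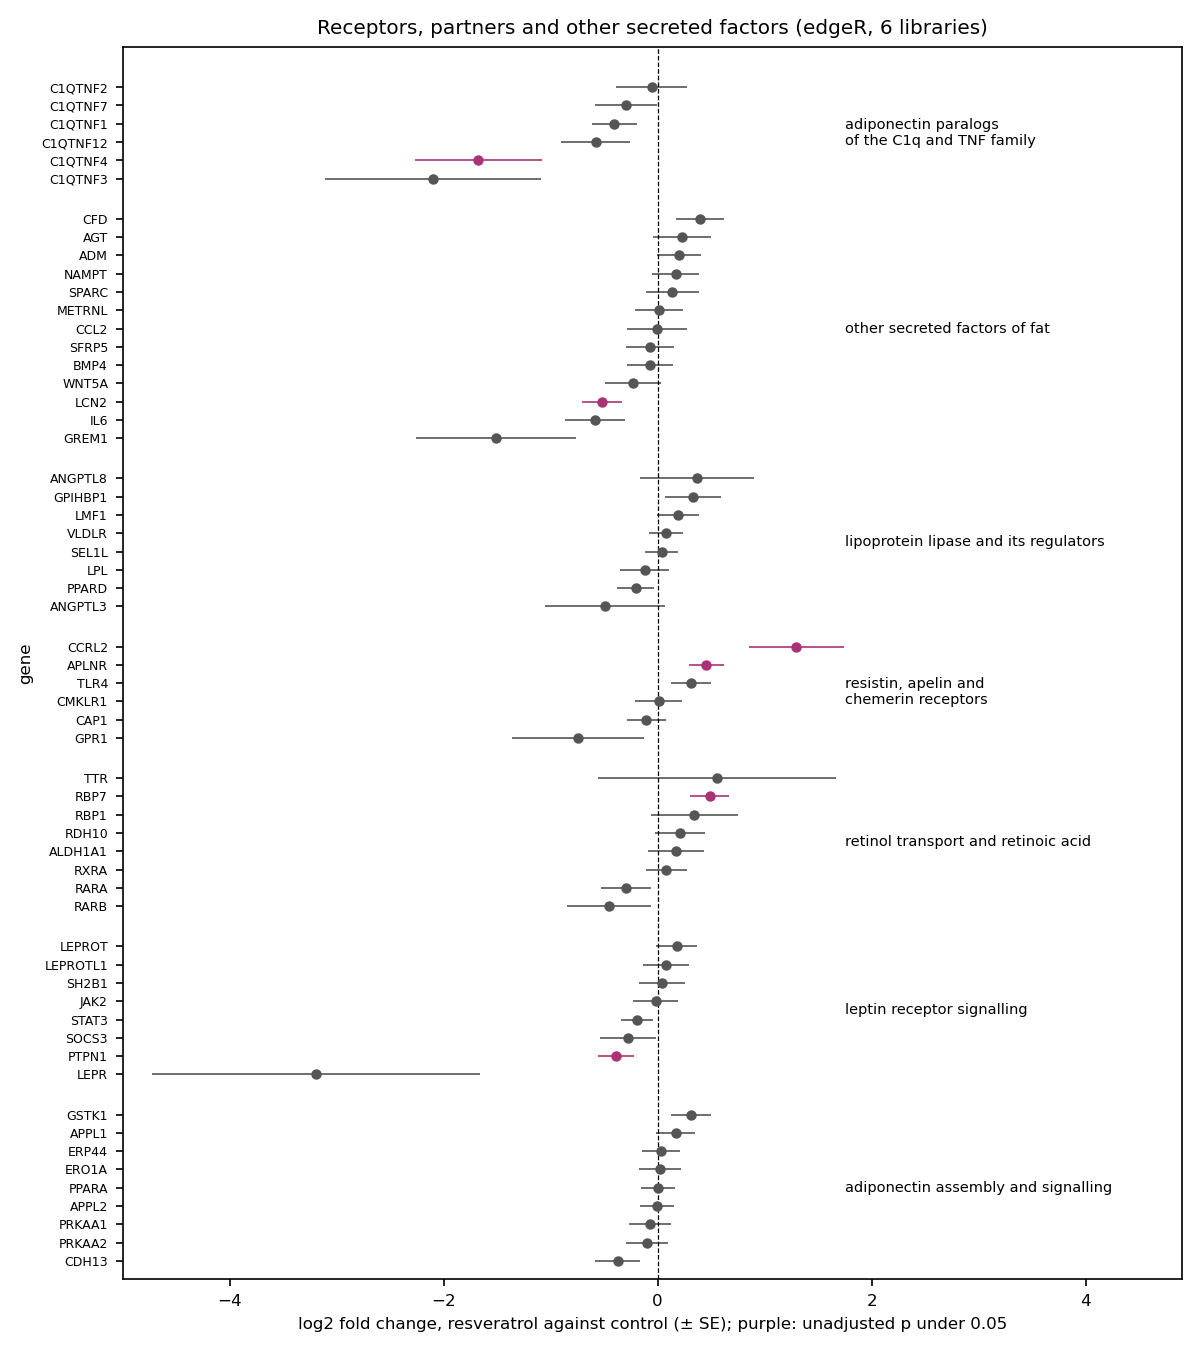
Log2 fold change (± SE, edgeR, 6 libraries) of the tested receptors, partners, other secreted factors and adiponectin paralogs, grouped by list, with genes of an unadjusted p under 0.05 in purple. The 6 paralogs lie left of 0, and LEPR has the widest error.

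Genes that define adipocytes gave the setting for these values. Of 15 tested, 13 were higher and 2 (DGAT2 and ACSL1, both of triglyceride synthesis) lower in resveratrol. Without control 2 the split was 9 to 6, and after quantile normalization FABP4 was also lower. The log2 fold changes of the 15 had a median of 0.18. GPD1, the glycerol phosphate enzyme, was the 1 of the 15 with an unadjusted p under 0.05 (log2 fold change 0.53, SE 0.21, edgeR adjusted p = 0.733), near the 6.53% of all rows with one (2.21% on the higher side). ADIPOQ at 0.36 lay above that median and LEP at -0.67 below it, and no test of this contrast was made. Among markers of other cells, the median log2 fold change was -0.12 for 6 endothelial genes and 0.08 for 7 stromal genes. It was 0.47 for 12 macrophage genes, 0.50 for 3 T and B cell genes and 0.65 for 4 neutrophil genes. For 6 tendon and cartilage genes, all lower, it was -3.58, and -1.81 in limma on log2(TPM + 0.5). Of these 6, 4 had an unadjusted p under 0.05 in edgeR, beside 4.32% of all rows on the lower side. DESeq2 called 1 of the 6, beside 0.268% of all rows. Of the macrophage genes 6 of 12 were higher with an unadjusted p under 0.05, beside 2.21% of all rows, and the 3 T and B cell genes were all higher with none under it. The neutrophil markers with a row summed to 66.8 to 117 TPM among control libraries, against 122 to 214 TPM with resveratrol, nearly all of it S100A12 and S100A8. Of the 4 tested neutrophil genes 3 were higher and ELANE, a granule protease, was lower (log2 fold change -0.26), while MPO, the neutrophil peroxidase, was at most 0.111 TPM and not tested. The part of these immune cell markers, and of the tendon and cartilage markers, in the adipokine values was not tested. COL1A1, a collagen of fibroblasts, measured 3536, 793 and 1871 TPM in the control libraries, against 720.4, 1008 and 580.4 TPM with resveratrol. The groups overlapped, with a log2 fold change of -1.40 (SE 0.52, edgeR unadjusted p = 0.0243, adjusted p = 0.733). Of the 7 stromal genes 5 were higher and 2 lower. COL1A1 was the 1 of the 7 with an unadjusted p under 0.05 in edgeR, beside 4.32% of all rows on the lower side.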

How the data were processed

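The members and gene lists were chosen with earlier results of these data known. Per the file headers, the authors deposited a read count and a TPM value per gene for each of the 6 libraries. The submitters' processing notes list Bowtie 0.12.2 beside mm8 and mm9, which are mouse builds, while the rows carry pig Ensembl identifiers. Which pig build, counter and strand setting lie behind the tables is not given in the sources used here. No coordinates are printed, and genes that overlap, lie antisense or are near copies may share reads. RNA was extracted with Trizol, per the labels' protocols.

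Symbols came from a table of gene identifiers, which matched 14750 of 22844 rows. GPR1 and TUSC5 were matched by their current symbols, CMKLR2 and TRARG1. The 14908 rows averaging 0.5 TPM or more were tested in R 4.3.3 with edgeR 4.0.16 (TMM scaling, robust quasi-likelihood test, Benjamini-Hochberg adjustment over all rows, threshold 0.05). The SE is the log2 fold change over the square root of F. Log2 CPM used a prior count of 2. Alternatives used limma 3.58.1, DESeq2 1.42.0, other scalings and filters, a replicate block and each library left out. On simulated counts for this comparison (14908 rows), edgeR recovered 51% of genes changed by a log2 fold change of 1 and 99% at 2. The simulation gave every row the same spread, a biological coefficient of variation of 0.235. Real rows differ in spread, so these shares do not hold for rows that vary more, such as LEPR (SE 1.53).

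The text names the 9 genes, the 4 genes of smallest p in each list of partners, direct receptors, the 2 most abundant markers of a cell type and the 3 genes most like ADIPOQ, LEP, RBP4 and ANGPTL4. FABP4, PLIN1, CFD, ACSL1, CSF1R, C1QTNF2, C1QTNF7, ELANE and MPO lie outside this rule and were chosen after their values were seen. A gene that the rule takes is not reported here.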

Additional observations from a re-analysis of the deposited data

How the results depend on the processing

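None of the 7 tested genes passed the adjusted threshold under any of 25 alternatives, 6 of which (DESeq2 without each library) were chosen after seeing the data. Of their 174 alternative fold changes, 159 kept the sign. The exceptions were small values: ADIPOR2 was 0.0546 with library totals alone and 0.0068 with no filter, ran from -0.1017 to 0.0884 in edgeR without each library, and was 0.0015, 0.0878 and 0.0217 in DESeq2 without control 2, control 3 and resveratrol 1. RARRES2 was -0.0057 with TPM rescaled without assembled loci, ran from -0.14 to 0.3105 in edgeR without each library, and was -0.14 and -0.0414 in DESeq2 without control 2 and resveratrol 2. ADIPOR1 ran from -0.0054 (without control 2) to 0.2142 in edgeR without each library, and was -0.0022 in DESeq2 without control 2. ADIPOQ is among the 20 rows with most reads, so the alternative without those rows gave no value for it. Over all rows, the count past the adjusted threshold went from 0 to 40 in DESeq2, 1 with TPM rescaled, 1 with quantile normalization, 0 to 5 in edgeR without each library, and 41, 197, 91, 21, 43 and 19 in DESeq2 without control 1, 2, 3 and resveratrol 1, 2, 3. Among the other genes named here, DESeq2 called C1QTNF1, C1QTNF4 and COL1A1 without control 2, GPIHBP1 without control 1 and ADRB1 without control 3. The count at an unadjusted p under 0.05 ran from 403 to 1681 without each library. The order of levels changed for 1 pair without control 2, RARRES2 above ANGPTL4. The cause of these shifts was not tested.

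The labels do not state whether the replicate number pairs libraries, and this was not settled. Same-numbered libraries correlated at 0.157, 0.0741 and 0.200 in their deviations from the group means, against -0.154 to 0.0121 for differently numbered ones. Each library correlated best with its own number. With the replicate block, edgeR called 0 rows and 0 of the 7 genes, and 1259 rows had an unadjusted p under 0.05 against 973. LEP rests on 195 to 570 reads per library, and RETN was not detectable at this depth.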
